A study of Mus musculus with 8 samples.

Results

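Testes of 28-day-old mice labelled as lacking Dmrt1 in Sertoli cells through Dhh-Cre were compared with testes of control mice of the same age. The comparison used 4 of the 8 arrays of the study, 2 labelled Dhh-Cre and 2 labelled Control, chosen by their labels alone; the other 4 arrays, labelled Sf1-Cre, are given beside them where the Cre lines are compared. All 8 arrays are of whole testes from male mice on a mixed background of C57BL6/6J and 129, and every mouse, controls included, carried Dmrt1 flox/flox. The controls carried no Cre, the Dhh-Cre mice carried a Cre driven by the Dhh promoter, and the Sf1-Cre mice carried one driven by the Sf1 (Nr5a1) promoter. The labels of the Dhh-Cre and Sf1-Cre samples also hold the word wt, which the control labels lack, and do not say what it refers to. The submitters describe both promoters as specific to Sertoli cells. Nr5a1 is also known to be active in Leydig cells, and Dhh in Schwann cells. The labels call the arrays biological replicates and do not say whether a sample was 1 testis or a pool, so p-values measure the spread between these samples.

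Dmrt1 encodes a transcription factor with a DM domain that is made in Sertoli cells and in spermatogonia. Sertoli cells are the supporting cells of the seminiferous tubule, which feed the germ cells and keep SOX9, while granulosa cells are their counterparts in the ovary and keep FOXL2. Loss of Dmrt1 from Sertoli cells after birth is known to let granulosa genes be switched on, and germ cells are then lost. In a whole testis, fewer cells of a type and less RNA per cell cannot be told apart.

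Dmrt1 itself went against the label. Its log2 level was 8.50 and 8.76 in controls, 10.43 and 9.94 in Dhh-Cre, and between 7.10 and 7.89 in Sf1-Cre. Both Dhh-Cre arrays lay above both controls and above every Sf1-Cre array. The difference from control was 1.55 ± 0.28 (log2, limma standard error, as are all errors beside differences; adjusted p = 0.0012), or 2.94-fold, and that from Sf1-Cre was 2.64 ± 0.24 (adjusted p = 0.00054). Centring every array on housekeeping genes reduced the difference from control to 0.04 (adjusted p = 0.903). Where the probe set lies relative to the deleted exons is stated in no source used here, so it does not check the deletion, and every direction below rests on the labels of the arrays labelled Dhh-Cre.

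Median intensity over all probe sets lay between 13.7 and 14.1 for controls and between 15.3 and 15.5 for Dhh-Cre. Correlations of log2 values were 0.994 for the control pair, 0.989 for the Dhh-Cre pair and 0.804 to 0.838 across these groups. The ratio of the 3' to the 5' Actb probe set, a measure of RNA integrity, was 4.44 and 4.89 in controls and 9.51 and 13.6 in Dhh-Cre, and that of Gapdh was 2.96 and 3.58 against 1.9 and 3.3. The part of RNA quality in the results was not tested. A gene was tested if its log2 level reached 4 (intensity 16), the floor, in at least 2 arrays, and it was called at an adjusted p under 0.05. Of 13802 genes tested, 10987 (79.6%) were called, 6781 (49.1%) higher and 4206 (30.5%) lower in Dhh-Cre, so a list's counts are read against these shares. Both Dhh-Cre arrays lay above both controls in 56% of all genes and below both in 35.1%. The median difference over all genes was 0.54. Housekeeping genes were no fixed reference: 9 of 12 were higher, with a median of 0.99. Centring on them lowered every difference by 1.51 and left 2422 of the 13802 genes higher and 8099 lower. A list's counts after centring are read against these, as most genes then lay lower.

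Sequences upstream of some of the genes named below come first, from RefSeq on GRCm38.p6. The gene pair Foxl2 and Foxl2os, whose starts lie on opposite strands of chromosome 9 with 296 bases between them, stood above the controls in Dhh-Cre. The 250 bases upstream of the Foxl2 start (98955607, plus strand) are shown here in lower case throughout, as no motif was marked in them.
Foxl2 (chr9:98955357-98955606, +): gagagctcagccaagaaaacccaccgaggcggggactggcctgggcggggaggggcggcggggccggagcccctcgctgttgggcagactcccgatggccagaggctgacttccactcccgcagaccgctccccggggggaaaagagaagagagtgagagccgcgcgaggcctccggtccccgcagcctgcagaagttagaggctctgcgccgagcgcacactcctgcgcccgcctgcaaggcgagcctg

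Stretches of up to 88 bases from 6 spermatid gene promoters are shown because they hold the cyclic AMP response element or a copy with 1 base changed. To this element CREM, an activator of spermatid genes, is known to bind. Capitals mark every TGACNTCA or its reverse complement, TGANGTCA, a motif that was chosen after the values were seen. The genes are Tssk1, Tssk2 and Izumo1 of the round spermatid list and Prm1, Tnp1 and Akap4 of the elongating spermatid list.
Tssk1 (chr16:17894115-17894202, +): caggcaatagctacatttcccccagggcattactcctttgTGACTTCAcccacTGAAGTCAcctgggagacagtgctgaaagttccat
Tssk2 (chr16:17898539-17898626, +): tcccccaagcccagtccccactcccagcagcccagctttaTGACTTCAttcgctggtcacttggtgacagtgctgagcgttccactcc
Izumo1 (chr7:45621675-45621762, +): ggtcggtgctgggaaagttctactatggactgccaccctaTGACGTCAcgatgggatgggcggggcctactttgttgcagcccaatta
Prm1 (chr16:10796840-10796927, -): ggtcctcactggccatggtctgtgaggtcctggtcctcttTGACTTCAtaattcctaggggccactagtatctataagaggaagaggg
Tnp1 (chr1:73015946-73016033, -): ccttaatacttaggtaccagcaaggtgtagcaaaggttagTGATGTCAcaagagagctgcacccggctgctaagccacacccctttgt
Akap4 (chrX:7067440-7067514, +): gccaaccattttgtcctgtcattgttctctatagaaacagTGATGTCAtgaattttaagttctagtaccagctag

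Motifs were searched on both strands of windows that covered the 250 bases before each gene's start. TGACNTCA, which includes the full element, was present in 9 of 19 windows (47.4%) of round spermatid genes and 7 of 31 (22.6%) of elongating spermatid genes, against 2460 of 32851 (7.49%) of all promoters. These windows cover 17 of 20 and 25 of 28 genes of the lists. Lists that did not fall varied. It was in 2 of 8 peritubular (25%), 1 of 4 theca (25%) and 2 of 11 macrophage windows (18.2%). It was in 1 of 19 Sertoli (5.26%), 0 of 12 fibroblast, 0 of 11 housekeeping and 0 of 7 Leydig windows. The pachytene spermatocyte list, which fell, held it in 1 of 18 windows (5.56%). The full TGACGTCA was in 1 of the 19 round spermatid windows (5.26%), that of Izumo1, in 0 of the 31 elongating spermatid windows and in 1.55% of all. CAAGGTCA, the site of NR5A factors, was in 0 of 14 granulosa, 0 of 7 Leydig and 1 of 8 windows of genes shared by Sertoli and granulosa cells (12.5%), and in 1.33% of all. A match describes the letters only.

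Germ cell genes fell most where they mark the latest stages. Of 28 elongating spermatid genes tested, 27 were lower and 0 higher in Dhh-Cre (median -6.69), and of 20 round spermatid genes 18 were lower and 0 higher (median -6.28). Of 16 pachytene spermatocyte genes, 13 were lower and 0 higher (median -2.52). Of 16 early meiosis genes, 6 were lower and 3 higher (median -0.50), and after centring on housekeeping genes 14 were lower and 0 higher (median -2.01). Without Dhh-Cre replicate 1 or control replicate 2 the early meiosis counts were 3 lower and 2 higher, and without Dhh-Cre replicate 2 they were 5 and 1. The direction of the spermatogonial lists depended on the scaling: as deposited, 5 of 11 genes of undifferentiated spermatogonia were higher and 3 lower (median 0.70), and 7 of 9 genes of differentiating spermatogonia were higher and 1 lower (median 1.11). After centring, 0 of the 11 were higher and 6 lower (median -0.82), and 3 of the 9 were higher and 4 lower (median -0.40). Without control replicate 2, uncentred, 3 of the 11 were higher and 2 lower.

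**Figure D1:**
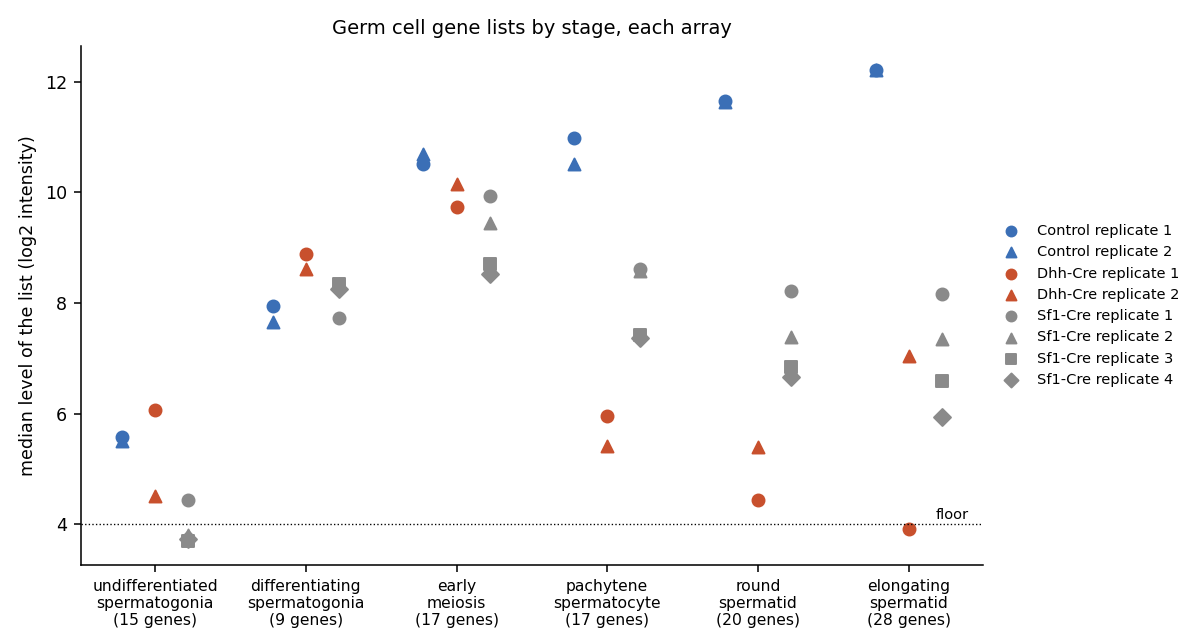
Median log2 intensity of each germ cell gene list (vertical axis) in each of the 8 arrays, with stages from spermatogonia to elongating spermatids from left to right, points coloured by group and shaped by replicate, and the dotted line at the floor of log2 4. For elongating spermatid genes the controls sit at 12.22 and 12.21, the Dhh-Cre arrays at 3.92 and 7.05, and the Sf1-Cre arrays between 5.94 and 8.17.

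Acrv1, a protein of the acrosome, the sac of enzymes on the sperm head, was at log2 11.65 and 11.49 in controls and at 3.05 and 4.68 in Dhh-Cre. The difference was -7.70 ± 0.83 (adjusted p = 6.77e-05), at least 190-fold lower. Tssk1, a kinase of spermatids, was at 11.53 and 11.64 in controls and at 3.31 and 4.85 in Dhh-Cre (-7.51 ± 0.64, adjusted p = 2.16e-05). The groups did not overlap for either gene. Acr, the acrosomal protease acrosin, fell by 6.43 and Izumo1, needed for sperm to fuse with the egg, fell by 6.22 on the log2 scale. Crem fell by 5.86 on its brightest probe set, while other probe sets differed by -0.09, 0.28 and 1.15, so its probe sets did not move together. Of the list, Tbpl1 and Dpep3 missed the threshold. Another probe set of Tbpl1 was at 11.2 and 10.87 in controls and 8.02 and 7.89 in Dhh-Cre, a difference of -3.08.

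Meiotic genes ranged from near control to far below it. Spag6, a flagellar axoneme gene listed with pachytene spermatocytes, was at 11.29 and 11.80 in controls and 4.44 and 5.42 in Dhh-Cre (98-fold lower, adjusted p = 1.19e-05). Ccna1, cyclin A1, needed to complete male meiosis, was at 11.12 and 10.88 against 5.95 and 5.38 (40.5-fold lower, adjusted p = 2.91e-05). Pgk2, the germ cell glycolytic enzyme, fell by 5.54 ± 0.58. The Dhh-Cre arrays lay below both controls for all 3 genes. Sycp3, a protein of the synaptonemal complex that pairs chromosomes from the start of meiosis, was at 11.16 and 11.41 against 11.06 and 11.28, and its groups overlapped (-0.12 ± 0.23, adjusted p = 0.638). Msh4, a crossover factor, fell by 3.13 ± 0.43 and Rec8, the meiotic cohesin, by 2.13 ± 0.29.

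Among spermatogonial genes, Stra8, which answers retinoic acid and starts meiosis, was at 7.94 and 7.76 in controls and at 10.80 and 10.22 in Dhh-Cre (2.66 ± 0.22, adjusted p = 1.8e-05, 6.31-fold). Uchl1, a ubiquitin hydrolase abundant in spermatogonia, was at 8.92 and 8.78 against 10.90 and 10.93 (2.06 ± 0.23, adjusted p = 8.91e-05). Both genes were higher in each Dhh-Cre array than in each control. Gfra1, the GDNF receptor of undifferentiated spermatogonia, was at 7.04 and 5.93 against 3.84 and 3.52, at least 5.6-fold lower (adjusted p = 0.000104). Dmrtb1, a DM-domain factor of the step from mitosis to meiosis, fell by 3.12 ± 0.32, to 8.88 and 8.62 from 11.84 and 11.90.

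The Dhh-Cre arrays differed from each other in late spermatid genes. Prm2, a protamine that packs sperm DNA, was at 13.28 and 12.92 in controls and at 6.59 and 11.53 in Dhh-Cre. Tnp2, a transition protein that acts before protamines, was at 12.36 and 12.02 against 4.79 and 8.40 (-5.60 ± 1.00, adjusted p = 0.00108). Prm1, the other protamine, was at 13.83 and 13.70 against 9.54 and 12.67, and its difference of -2.66 ± 1.21 missed the threshold (adjusted p = 0.0737). In all 3 genes replicate 2 stood above replicate 1 and neither reached a control. The difference of Prm2 was -4.04 ± 1.48 (adjusted p = 0.0343), and the call was lost without Dhh-Cre replicate 1 (-1.57, adjusted p = 0.201), without control replicate 1 (adjusted p = 0.119) or 2 (0.0948), and with the replicate number as a block (0.0526).

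Over the 21 elongating spermatid genes that reached the floor in a Dhh-Cre array, replicate 2 was higher in 21, by a median of 2.91 and by 1 or more in 20. Over all 13802 genes tested, whether or not they reached the floor in a Dhh-Cre array, the median was 0 and replicate 2 was higher in 50.4%. The sum of the list's intensities was 2820 in replicate 1 and 18400 in replicate 2, against 165000 and 150000 in controls. Round spermatid genes differed less, by a median of 0.95, with 19 of 20 higher in replicate 2. Some epididymal genes went the other way: of 3 that reached the floor in a Dhh-Cre array, 2 were higher in replicate 1 by 1 or more. The remaining 1 was higher in replicate 2. The list's summed intensity was 3250 in replicate 1 and 76.6 in replicate 2, against 171 and 59.8 in controls. In Sf1-Cre replicates 1 to 4 it was 4410, 99.3, 1490 and 145. Spink8, a protease inhibitor of the epididymis, was at 11.55 and 4.48 in Dhh-Cre and 6.87 and 3.11 in controls. The part of epididymal tissue in the results was not tested.

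**Figure D2:**
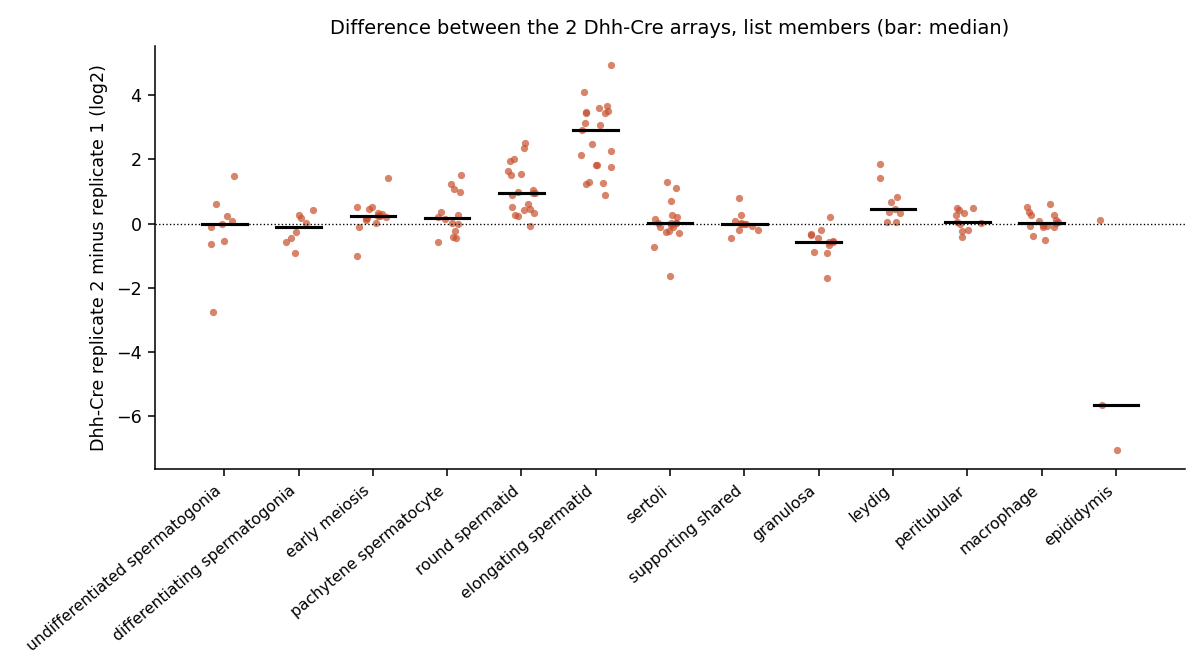
Difference between the 2 Dhh-Cre arrays (replicate 2 minus replicate 1, log2) for each member of 13 gene lists that reached the floor in either array, with a bar at each list's median. Elongating spermatid genes all lie above 0, with a median of 2.91, and the median of the Sertoli list is 0.01.

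Sertoli genes were mostly higher in Dhh-Cre, though not after centring. Of 19 tested, 13 were higher and 1 lower (median 0.88). With arrays centred on housekeeping genes 7 were higher and 9 lower (median -0.64), beside 2422 higher and 8099 lower of all 13802 genes. Sox9, the factor that keeps Sertoli identity, was at 5.45 and 5.94 in controls and at 8.37 and 8.58 in Dhh-Cre (2.78 ± 0.34, adjusted p = 0.000127, 6.88-fold). Sox8, its relative, was at 3.64 and 3.27 against 5.46 and 5.60, at least 2.89-fold higher (adjusted p = 3.01e-05). Both Dhh-Cre arrays exceeded both controls for the pair. Shbg, which binds androgens, rose by 3.55 ± 0.24, Gata1, a Sertoli transcription factor, by 2.70 ± 0.48 and Dhh, the hedgehog ligand of Sertoli cells, by 2.18 ± 0.18. The single fall was of Fgf9, a growth factor of testis formation, at least 1.3-fold lower with its Dhh-Cre mean under the floor. Amh, which Sertoli cells make before puberty, stayed under the floor, and Gdnf reached it in only 1 array, of Sf1-Cre, so neither was tested.

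Tsx, an X-linked gene of Sertoli cells, was at 11.17 and 11.15 in controls, 11.68 and 12.39 in Dhh-Cre and 4.52 to 5.23 in Sf1-Cre. Rhox5, an X-linked homeobox gene that androgen induces in Sertoli cells, was at 7.97 and 8.08, 7.93 and 9.03, and 3.09 to 3.79. Every Sf1-Cre array lay below all others. Against control, Tsx differed in Dhh-Cre by 0.88 ± 0.30 (adjusted p = 0.0246; 0.52, adjusted p = 0.16, without Dhh-Cre replicate 2, and lost without either control array too) and Rhox5 by 0.45 ± 0.38 (adjusted p = 0.294), and centring on housekeeping genes turned these to -0.64 and -1.06. The Dhh-Cre minus Sf1-Cre difference was 7.09 ± 0.26 for Tsx (adjusted p = 6.98e-06), and Rhox5 was at least 22.3-fold higher in Dhh-Cre (adjusted p = 0.000124).

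Granulosa genes rose from under the floor. Of 14 tested, 9 were higher and 2 lower (median 3.01, or 2.09 with values under the floor set to it), and only 3 had a control mean at the floor, so a gene could pass the filter through the Cre lines alone. Foxl2, the ovarian counterpart of SOX9, was at 1.95 and 1.80 in controls and at 5.82 and 5.24 in Dhh-Cre, at least 2.88-fold higher (adjusted p = 0.000209). Foxl2os, its neighbour on the other strand, was at 2.30 and 1.80 against 9.60 and 9.39, at least 45.2-fold higher (adjusted p = 1.23e-06). In both genes the controls lay under the floor and the Dhh-Cre arrays above it. Nr5a2, a nuclear receptor of granulosa cells, was at 2.31 and 2.41 against 6.99 and 6.07 (at least 5.79-fold, adjusted p = 0.000578).

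Hsd17b1, which makes estradiol in granulosa cells, was at 2.71 and 2.53 in controls and 6.53 and 5.87 in Dhh-Cre, at least 4.59-fold higher. Fst, follistatin, which binds activin, was at least 6.05-fold higher, and Rspo1 and Wnt4, ligands of the Wnt pathway that acts in the ovary, were at least 3.93-fold and 5.93-fold higher. The 2 falls were of Irx5, a homeobox gene, and Pappa, a protease, whose Dhh-Cre means lay under the floor, at least 14.9-fold and 17-fold lower. Another probe set of Pappa differed by 2.32, the opposite way. Esr2 stayed under the floor, and Cyp19a1 was not analysed here.

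**Figure D3:**
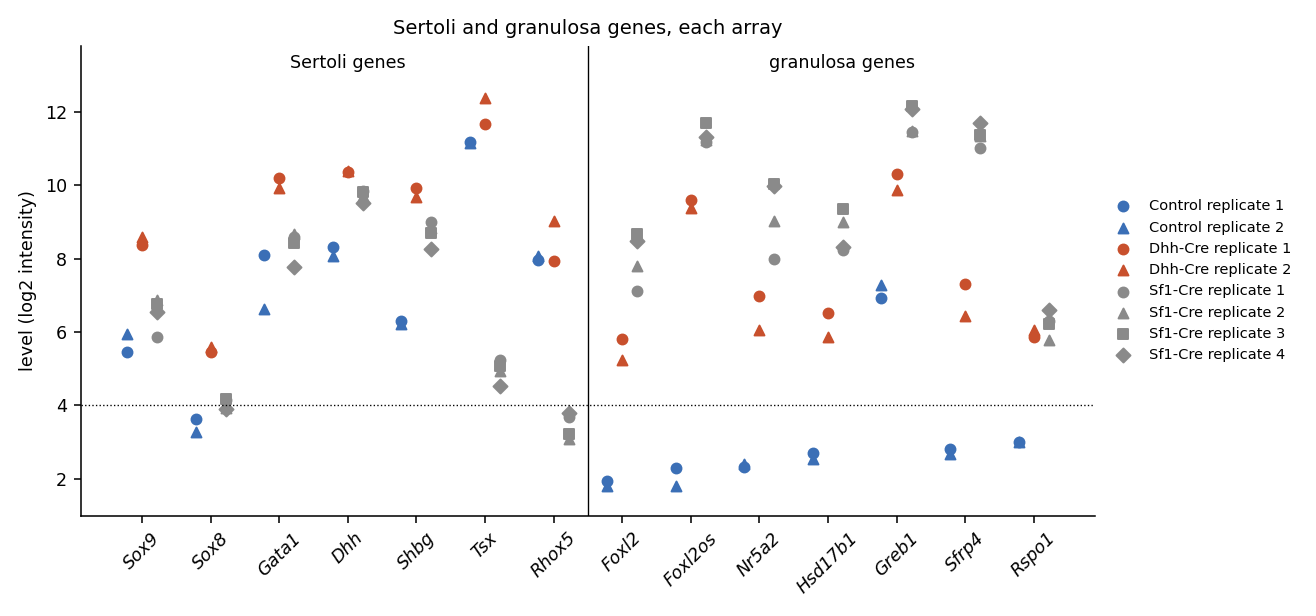
Log2 intensity (vertical axis) of 7 Sertoli genes, left of the line, and 7 granulosa genes, right of it, in each of the 8 arrays, coloured by group and shaped by replicate, with the dotted line at the floor. Foxl2os sits at 9.60 and 9.39 in Dhh-Cre, between controls at 2.30 and 1.80 and Sf1-Cre arrays at 11.19 to 11.71; Tsx sits at 4.52 to 5.23 in Sf1-Cre and at 11.15 or above in the other arrays.

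Set against Sf1-Cre, the Dhh-Cre arrays held more Sertoli and less granulosa signal. Over all genes, 3402 of 13802 (24.6%) were called, 1624 (11.8%) higher and 1778 (12.9%) lower in Dhh-Cre. Both Dhh-Cre arrays lay above every Sf1-Cre array in 23.2% of genes and below every one in 24.5%. Without Dhh-Cre replicate 1 the count called was 1234, and without replicate 2 it was 2201. Of 19 Sertoli genes, 11 were higher in Dhh-Cre and 2 lower (median 0.65), and without 1 array at a time 7 (without Dhh-Cre replicate 1) to 10 were higher. Of 14 granulosa genes, 0 were higher and 7 lower (median -1.51), and without 1 array at a time 5 to 9 were lower. A granulosa gene could pass the filter through the Sf1-Cre arrays alone, and with no filter 7 of 18 were lower (median -0.84).

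Sox9 was 3.89-fold higher in Dhh-Cre than in Sf1-Cre, where it lay between 5.88 and 6.87 (1.96 ± 0.29, adjusted p = 0.00372). Sox8 differed by 1.50 ± 0.16 (adjusted p = 0.00108). Foxl2 lay between 7.13 and 8.68 in Sf1-Cre and was 5.64-fold lower in Dhh-Cre (-2.50 ± 0.42, adjusted p = 0.00599). For all 3 genes the Dhh-Cre arrays did not overlap the Sf1-Cre arrays. Sfrp4, a secreted Wnt antagonist, was at 7.32 and 6.43 in Dhh-Cre and 11.02 to 11.71 in Sf1-Cre, 22.4-fold lower (adjusted p = 8.55e-05), and Hsd17b1 and Greb1, an estrogen-responsive gene, were 5.76-fold and 3.23-fold lower. Rspo1 and Wnt4 missed the threshold between the lines, with differences of -0.25 ± 0.22 and 0.74 ± 0.51. Ptgds, the prostaglandin D synthase, and Mro were the 2 Sertoli genes lower in Dhh-Cre, at -1.84 and -1.16. Without Dhh-Cre replicate 2 both calls were lost (-1.02, adjusted p = 0.16, and -1.14, adjusted p = 0.145), and without replicate 1 that of Mro (adjusted p = 0.166). That of Ptgds was also lost without Sf1-Cre replicate 2 or 3, and that of Mro without Sf1-Cre replicate 1, 2 or 4. The call of Nr5a2 (-2.73 ± 0.58) was lost without Dhh-Cre replicate 2 (adjusted p = 0.0858).

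**Figure D4:**
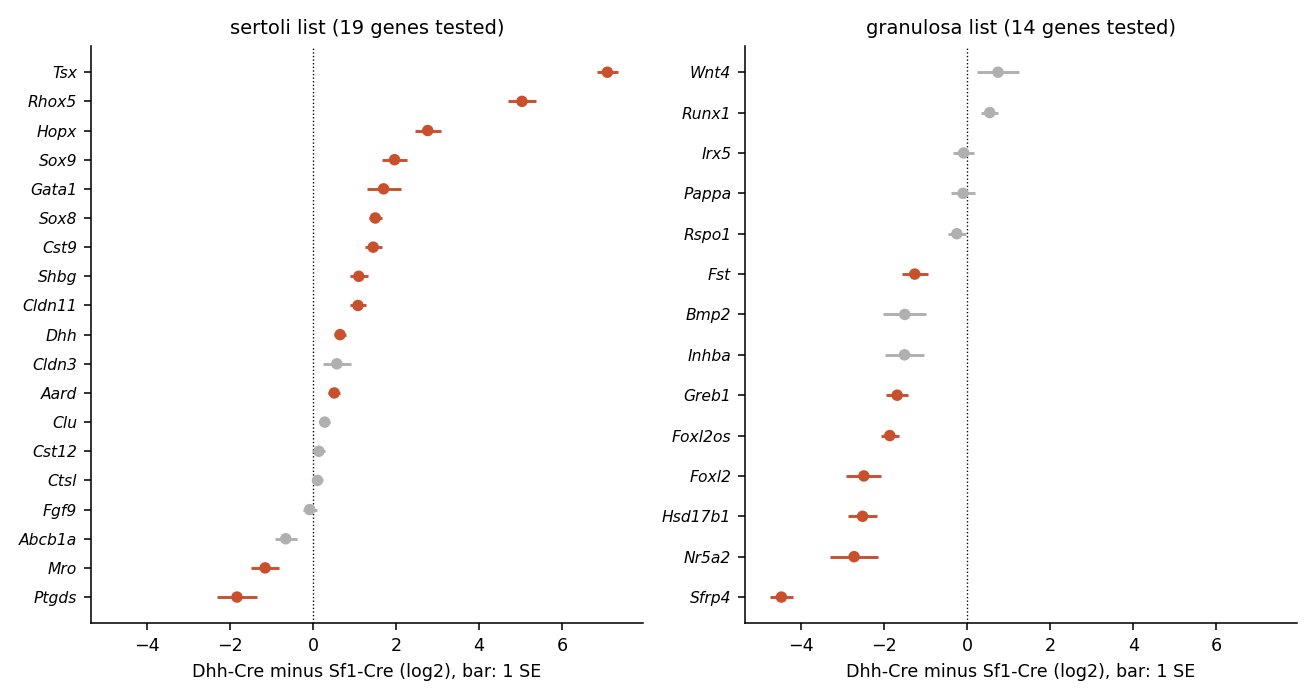
Dhh-Cre minus Sf1-Cre difference (log2, horizontal axis; point and 1 standard error) for the 19 Sertoli and the 14 granulosa genes tested, coloured where the adjusted p was under 0.05. Sertoli genes run up to 7.09 for Tsx, and granulosa genes run down to -4.48 for Sfrp4.

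Germ cell genes also differed between the lines. Round spermatid genes were lower in Dhh-Cre than in Sf1-Cre for 12 of 20 and higher for 0 (median -2.21), and without Dhh-Cre replicate 1, the array with the least elongating spermatid signal, for 3 of 20. Of 16 pachytene spermatocyte genes 5 were lower, 1 was higher and 10 were not called (median -0.53), and without Dhh-Cre replicate 1 or Sf1-Cre replicate 2 there were 3 lower and 0 higher. Among the 5, Ccna1 (-3.10 ± 0.42), Pgk2 (-3.09 ± 0.51) and Spag6 (-3.73 ± 0.42) were lower in Dhh-Cre. Of 28 elongating spermatid genes 8 were lower and 1, Prm1, was higher; without Dhh-Cre replicate 1 these counts were 1 and 5, and without replicate 2 they were 16 and 0. The call of Prm1 held under 4 of 15 alternatives and was lost, among others, with the replicate number as a block (2.34, adjusted p = 0.169), without Dhh-Cre replicate 2 (1.85, adjusted p = 0.29) and without Sf1-Cre replicate 2, 3 or 4. Stra8 (1.10 ± 0.19) and Uchl1 (2.74 ± 0.20) were higher in Dhh-Cre, and 5 of 9 genes of differentiating spermatogonia were higher and 2 lower, or 4 and 1 without Dhh-Cre replicate 2.

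Most genes shared by Sertoli and granulosa cells rose. Of 11 tested, 9 were higher and 1 lower than in controls (median 2.54), or 6 and 2 after centring on housekeeping genes. Gata4, a gonadal transcription factor, was at 5.82 and 6.15 in controls and 10.08 and 10.17 in Dhh-Cre (4.14 ± 0.30, adjusted p = 1.19e-05, 17.6-fold). Nr5a1, the steroidogenic factor, rose by 3.04 ± 0.28, Inha, the inhibin alpha subunit, by 2.44 ± 0.16 and Nr0b1, the X-linked nuclear receptor DAX1, by 2.69 ± 0.30. The single fall was of Emx2, by 2.78. Nr0b1 was also 4.45-fold higher than in Sf1-Cre (adjusted p = 0.00154). Nr5a1 is also active in Leydig cells, whose list was higher than in controls by a median of 2.59. The rise of the shared genes is therefore not assigned to any cell type.

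Genes of cells outside the tubule, and those of a theca list, were higher as well. After centring on housekeeping genes 11 of 16 macrophage, 5 of 9 Leydig, 4 of 11 peritubular, 6 of 11 fibroblast, 2 of 4 theca and 3 of 8 endothelial genes were higher, and 1, 0, 2, 2, 0 and 2 of them, in that order, were lower. Of 9 Leydig genes, 7 were higher and 0 lower (median 2.59); Star, which carries cholesterol into mitochondria, rose by 2.96 ± 0.27 and Hsd3b1, a steroid dehydrogenase, by 2.59 ± 0.17. Of 16 macrophage genes, 15 were higher and 1, Fcgr3, lower (median 3.22); Csf1r, the receptor of their growth factor, was at 7.59 and 7.67 against 11.05 and 10.66. Of 11 smooth muscle genes of peritubular cells, 9 were higher and 1, Actg2, lower (median 2.04); Acta2 rose by 2.17 ± 0.15. Of 11 fibroblast genes 9 were higher and 1 lower (median 3.02), with Dcn, the proteoglycan decorin, up by 4.87 ± 0.20. Of 4 Schwann cell genes, 2 were higher and 1 lower, and of 3 erythroid genes 1 was higher and 1 lower. All 4 theca genes tested were higher (median 2.04), and 7 of 8 endothelial genes (median 1.80), but only 2 of these theca and 3 of these endothelial genes had a control mean at the floor, so the others could pass the filter through the Cre lines alone. Against Sf1-Cre, 5 of 16 macrophage genes were lower and 0 higher, and 5 of 11 peritubular genes were higher and 0 lower. Without Dhh-Cre replicate 1 or 2 the macrophage count was 2 or 3 and the peritubular count 2.

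The largest rises against control by the naming rule were led by Wfdc18, a protease inhibitor family gene, at 4.23 and 4.24 in controls and 12.15 and 11.78 in Dhh-Cre (212-fold, adjusted p = 1.49e-06), against 4.69 to 5.47 in Sf1-Cre. Myoz2, a muscle protein, was at 3.48 and 3.25 against 10.06 and 9.64, at least 57.7-fold higher, and 5.33 to 6.12 in Sf1-Cre. In both genes the Dhh-Cre arrays stood above every other array. Robo4, an endothelial receptor, was at least 52.7-fold higher, and Hspb8, a small heat shock protein, was 60.9-fold higher. The largest falls included Ccdc70 (314-fold) and Cabs1, a spermatid gene (306-fold), each with replicate 2 of Dhh-Cre above replicate 1 (Cabs1 at 6.44 and 2.96). Lpar3, a lysophosphatidic acid receptor, was at 7.93 and 8.07 in controls, 10.41 and 10.54 in Dhh-Cre and 2.03 to 2.28 in Sf1-Cre, at least 88.9-fold higher than in Sf1-Cre (adjusted p = 1.88e-07).

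Genes of the retinoid supply and of cell junctions were mostly higher than in controls as deposited. Of 11 retinoid genes 9 were higher and 1, Aldh1a2, lower than in controls (median 1.65), and 6 were higher and 1 lower than in Sf1-Cre. After centring on housekeeping genes 4 were higher than in controls and 1 lower, and the call of Aldh1a2, uncentred, was lost without Dhh-Cre replicate 1 (adjusted p = 0.0648) or control replicate 2 (adjusted p = 0.0627). Stra6, the retinol uptake receptor, was at 3.33 and 3.81 in controls, 5.38 and 5.07 in Dhh-Cre and 2.47 to 2.74 in Sf1-Cre, and its call against control was lost after centring (0.14, adjusted p = 0.618). Crabp1, a carrier of retinoic acid, was at 8.82 and 8.92, 11.69 and 11.31, and 9.33 to 10.01. For both genes the Dhh-Cre arrays lay above all others. Of 11 junction genes, a list that joins tight, gap and adherens junction members, 9 were higher than in controls (median 2.49). The 2 lower were Nectin3 and Cdh2, both outside the tight junction, and after centring 6 of the list were higher and 4 lower. Ocln, the junction protein occludin, was at least 2.11-fold higher than in Sf1-Cre, where it lay under the floor (2.10 to 2.57). Of 11 proliferation genes 5 were higher, a share near the 49.1% of all genes tested, and 2 lower (median 0.43); after centring 1 was higher and 6 lower (median -1.08). Mki67, a mark of cycling cells, was at 9.71 and 9.27 in controls and 11.24 and 11.04 in Dhh-Cre, a call lost after centring (0.13, adjusted p = 0.587). Of 4 epididymal genes 1 was higher and 1 lower.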

How the data were processed

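Total RNA of whole testes was labelled with biotin and hybridized to 1 array per sample, with 45101 probe sets and 8 arrays in 3 groups. The authors deposited linear intensity values that, per the submitters' processing notes, GCRMA had made, with no version or settings stated in any source used here. Log2 of the deposited intensity was taken here. Of the probe sets, 34958 carry 1 gene symbol, 932 several and 9211 none, and 34754 matched GRCm38.p6 by Entrez identifier. Each gene was represented by its probe set with the highest mean over 8 arrays (18194 genes; 4392 left out as low). Of 94 named genes with another probe set above the floor, 14 had a probe set of opposite sign.

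Under R 4.3.3, with files read by data.table (version 1.17.8), limma 3.58.1 fitted 3 group means to 8 arrays (5 residual and 2.73 prior degrees of freedom), with 2-sided p-values adjusted by Benjamini and Hochberg over 13802 genes. Where a group's mean was under log2 4, the fold is a lower bound taken at that floor. The fit was tested on simulated data. Figures used Python 3.11.15, matplotlib 3.10.9 and pandas 2.3.3. Named genes are members of 25 lists, with the 10 largest rises and falls against control and the 5 largest each way against Sf1-Cre whose arrays did not overlap; members and lists were chosen with earlier results of these data known. Alternatives were other scalings, filters, call rules, probe set averaging, leaving out each array and a replicate block. The replicate numbers were checked for pairing: deviations of same-numbered arrays correlated between -0.194 and 0.38, so the numbers were not taken as pairs.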

Additional observations from a re-analysis of the deposited data

Results flagged for a closer look

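Among the 305 list genes on the array and the genes named by their largest differences, 12 moved in opposite directions from control in the 2 Cre lines. The rule that picked them asked for a limma call against control in both lines and a call between the lines. These calls are therefore no independent support for any of the 12. The rule also asked that Dhh-Cre and Sf1-Cre arrays not overlap, and it was not run over all genes. Lpar3 and Xaf1 entered only through the size of their difference between the lines, so that difference is no independent support. By the fitted difference, higher in Dhh-Cre than in Sf1-Cre were Lpar3 by 8.31, Tsx by 7.09, Dmrtc1a by 5.42, Ocln by 2.78, Hopx by 2.76, Uchl1 by 2.74, Dmrt1 by 2.64, Stra6 by 2.63, Dmrta1 by 2.53, Pou3f1 by 2.49 and Figla by 1.90 on the log2 scale. Lower in Dhh-Cre was Xaf1, at -5.72, but another probe set of Xaf1 was at 3.55 and 2.81 in controls and 9.11 and 9.21 in Dhh-Cre, a difference of 5.98 the opposite way. Where a mean lay under the floor of log2 4 the fitted difference is no measured size: at that floor Lpar3 was at least 88.9-fold, Hopx 5.25-fold, Stra6 2.33-fold, Ocln 2.11-fold and Pou3f1 1.73-fold higher in Dhh-Cre, and Xaf1 at least 28.4-fold lower. For Ocln, Stra6 and Pou3f1 both the control and the Sf1-Cre means lay under the floor, so their direction in Sf1-Cre has no measured size. After centring on housekeeping genes Lpar3, Uchl1 and Xaf1 kept their call and direction in Dhh-Cre against control; Dmrt1, Dmrta1, Dmrtc1a, Hopx, Ocln and Stra6 lost the call, and Tsx, Figla and Pou3f1 turned below 0. Both contrasts share the control arrays. No cause was tested for any of these differences.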

How the results depend on the processing

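Of 81 named genes, 57 kept their direction and call against control under every alternative run, and 69 did apart from centring on housekeeping genes; against Sf1-Cre 50 of 81 did. The count of genes called against control was 9232 with a floor of log2 6, 12407 with no filter, 10001 to 10285 without 1 array and 10771 with the replicate block. Against Sf1-Cre the count was 1234 to 3717 without 1 array, 2967 with the replicate block, 2101 for at least a 2-fold difference and 1352 at an adjusted p under 0.01. Centring on housekeeping genes moved the Sertoli count from 13 to 7 and turned the list medians to -0.64 (Sertoli), -0.82 (undifferentiated) and -0.40 (differentiating spermatogonia), -0.97 (erythroid), -1.08 (proliferation) and -0.53 (housekeeping). It also turned Tsx to -0.64, Rhox5 to -1.06, Mro to -1.19, Figla to -0.57, Pou3f1 to -0.07, Gapdh to -0.31 and Actb to -1.23. Averaging probe sets gave -0.15 for proliferation, -0.92 for Actb and 2.24 for Xaf1. Without 1 array the epididymis median ranged from -0.49 (without Dhh-Cre replicate 1) to 3.14, and the oocyte median 0.03 with no filter. The cause of these changes was not tested. With 2 arrays per group, precision rests on the number of arrays.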

Other observations

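Several DM-domain genes, relatives of Dmrt1, stood high in Dhh-Cre. Dmrtc1a, on the X chromosome, was at log2 8.18 and 8.81 in controls, 10.31 and 10.54 in Dhh-Cre and 4.73 to 5.35 in Sf1-Cre. Dmrta1 was at 9.69 and 9.41, 11.30 and 11.47, and 8.38 to 9.19. In both genes every Dhh-Cre array lay above every control and every control above every Sf1-Cre array. Of 6 DM-domain genes tested 4 were higher than in controls and 2, Dmrtb1 and Dmrtc2, lower, but after centring on housekeeping genes 0 were higher and 2 lower.

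Genes on the X chromosome were more often higher in Dhh-Cre than in controls: 368 of 465 tested (79.1%) were higher and 68 (14.6%) lower, with a median of 1.92, against 48.1% and 31% of 13302 autosomal genes, with a median of 0.49. These are counts over genes, which are not replicates.

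Genes known from oocytes were mixed: of 6 tested, 3 were higher and 3 lower. Nobox, a homeobox factor of oocytes, was at 2.98 and 2.76 in controls, 6.36 and 5.42 in Dhh-Cre and 3.12 to 3.50 in Sf1-Cre. Gdf9, a growth factor of the oocyte, was at 6.00 and 5.94 in controls and 3.30 and 3.50 in Dhh-Cre. Zp3, of the egg coat, was not tested as low.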
